A study of Homo sapiens with 12 samples.

Results

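The SR proteins, the TRA2 proteins and the heterogeneous nuclear ribonucleoproteins (hnRNPs) are the best known families of RNA-binding proteins that set splice site choice, and 33 of their genes were followed here in human induced microglia-like cells (iMGLs). The genes were chosen by symbol (11 SRSF genes, TRA2A, TRA2B and 20 HNRNP genes) from the 57992 genes of the count table, and they are a selection from these families, not all of their genes. The group was picked from results of these same counts, and which comparison prompted it is not recorded, so the counts below describe these genes and are no independent evidence for any of the comparisons. Each of the 33 matched 1 row of the table, and all 33 passed the filter on low counts that left 16022 genes.

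The iMGLs, cells made to resemble the resident macrophages of the brain, came from H1, an established human embryonic stem cell line. WT cells were unedited, and KO cells carried a knockout of MEF2C, a transcription factor expressed in microglia. LPS (lipopolysaccharide) is a bacterial cell wall component that macrophages sense through TLR4, and BMS, short for BMS265246, is the compound that the series title ties to inhibition of the cyclin-dependent kinase CDK2. The 5 groups were WT and KO without LPS, with 3 libraries each, and WT with LPS (WT LPS), KO with LPS (KO LPS) and KO with LPS and compound (KO LPS BMS), with 2 each. The compound was given only to KO cells that also received LPS, so its effect in WT cells or without LPS was not measured. The type of edit, the number of edited clones, doses and times are not given in the sources at hand. The labels call the libraries biological replicates without saying whether they came from separate differentiations, so p-values measure only the spread between these samples.

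SR proteins carry RNA recognition motifs and a tail rich in arginine and serine. They mostly promote the inclusion of exons whose enhancers they bind, and kinases of the SRPK and CLK families phosphorylate the tail. Many hnRNPs coat the nascent transcript and often repress exons, and several also act in the cytoplasm, for example on the decay of cytokine mRNAs with AU-rich elements. Many of these genes hold highly conserved poison exons, whose inclusion sends their own transcript to nonsense-mediated decay (NMD). A read count per gene adds up productive and unproductive transcripts and does not tell them apart.

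Total counts ran from 13888283 to 17639136 per library. Levels are given in CPM, the read count normalised to library size on the TMM scale of edgeR. MEF2C was still transcribed in the KO libraries, at 129 to 136 CPM against 177 to 193 CPM in WT, and at 43.7 to 51.6 CPM in all LPS libraries. Counts per gene do not show whether the remaining transcript makes protein. All 14 microglial markers were detected, including CSF1R, TREM2 and TMEM119, with a summed level of 7931 to 9458 CPM, while the 6 pluripotency markers summed to at most 0.618 CPM and all fell below the filter. P2RY12, a marker of resting microglia, was at a mean of 15.1 CPM in WT and 1.81 CPM in WT LPS. Of the 14 markers, 2 were called higher, 5 lower and 7 not called in WT LPS against WT. Their summed level was 8233 to 8918 CPM in WT LPS and 8509 to 8644 CPM in WT. Markers of endothelial cells summed to 221 to 593 CPM, mostly PECAM1, which myeloid cells also express, and those of neurons and glia to 57.3 to 155 CPM, mostly MBP. In bulk RNA, fewer cells of one kind and less RNA per cell cannot be told apart. Changes are log2 fold changes ± SE from edgeR's quasi-likelihood test over all 16022 genes, and a gene is called where its p, adjusted by Benjamini-Hochberg, is under 0.05.

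Scaling matters for the LPS comparisons. The TMM factors were 1.10 to 1.12 in the 6 libraries without LPS and 0.872 to 0.94 in the 6 libraries with it. With library size as the only scaling, the median of all genes moved from -0.07 to -0.36 for WT LPS against WT, from -0.00415 to -0.26 for KO LPS against KO, and from -0.06 to -0.39 for KO LPS BMS against KO. The splicing factors moved with it, and changes below are relative to the TMM scale.

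**Figure D1:**
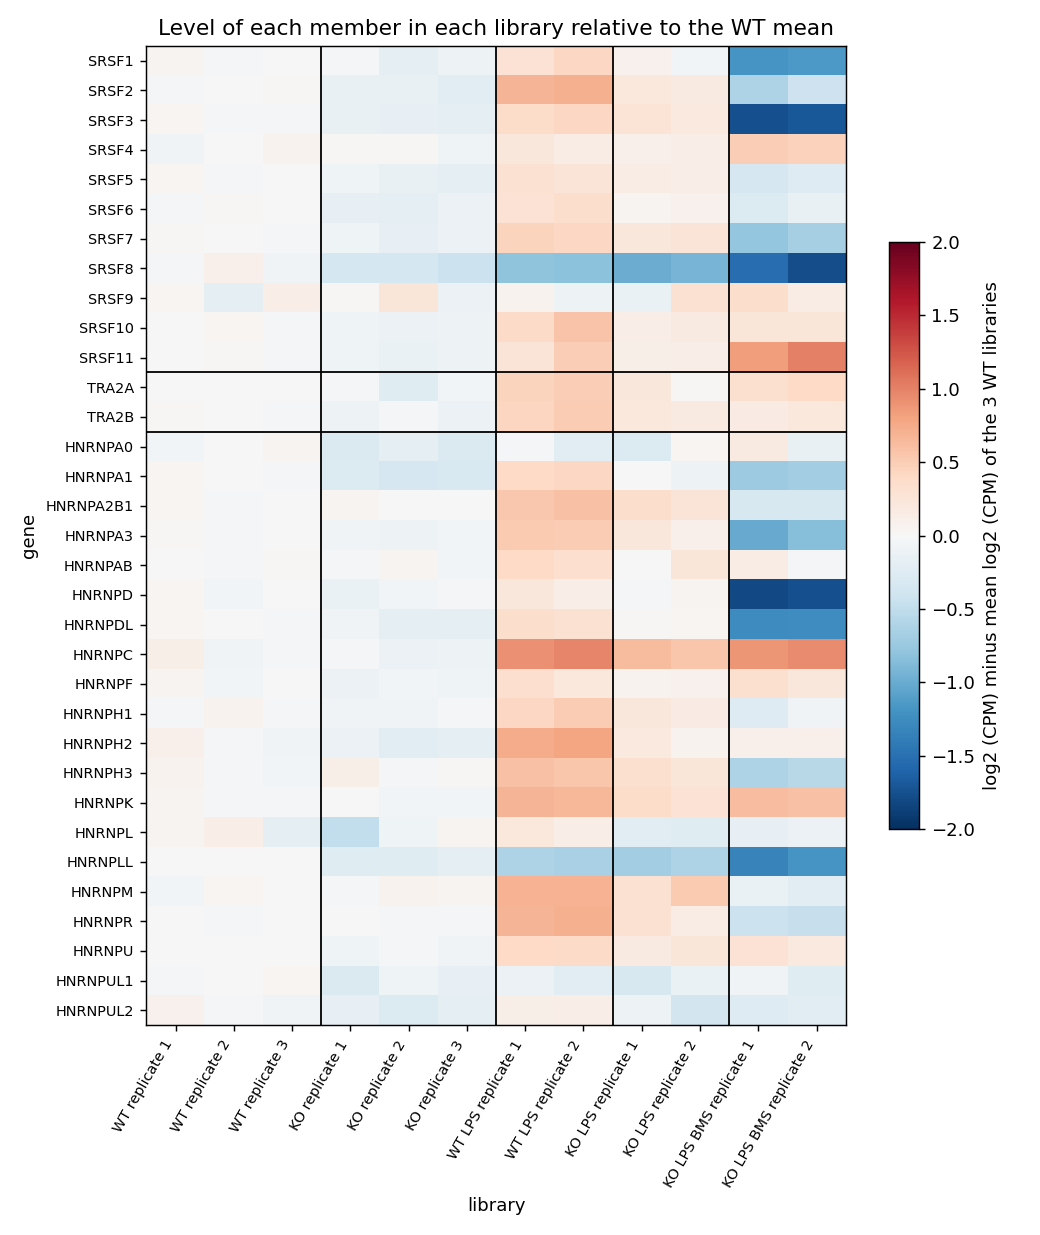
Level of each of the 33 genes (rows) in each of the 12 libraries (columns), as log2 CPM minus the mean log2 CPM of the 3 WT libraries (colour, red above and blue below WT, lines between groups and families). WT LPS columns are red for most genes and blue for SRSF8 and HNRNPLL. In the KO LPS BMS columns SRSF3 and HNRNPD are dark blue while SRSF11 and HNRNPC are red.

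Summed over the 33 genes, the level was 7613 to 7816 CPM in WT, 7128 to 7181 CPM in KO, 10458 to 10547 CPM in WT LPS, 8538 to 8687 CPM in KO LPS, and 7240 to 7285 CPM in KO LPS BMS. The same sums were also taken as a share of all counts, which scales by library size alone. The shares were 0.84% to 0.856% in WT, 0.784% to 0.801% in KO and 0.942% to 0.956% in WT LPS. They were 0.786% to 0.816% in KO LPS and 0.63% to 0.643% in KO LPS BMS. On both scales WT LPS was the highest group. KO LPS lay above KO in CPM and overlapped it as a share of counts. KO LPS BMS was the lowest group as a share of counts.

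Levels between genes were compared per kilobase of exon in WT cells, as the mean ± SD over 3 libraries. HNRNPA1, a shuttling protein that silences exons, was highest at 168 ± 3.96 CPM per kilobase. HNRNPK, which binds C-rich RNA, followed at 90.7 ± 2.76, and HNRNPA2B1, a close relative of HNRNPA1, at 84.1 ± 2.19. HNRNPAB was at 81.8 ± 1.54, and its spread overlapped that of HNRNPA2B1. At the other end were SRSF4 (11.5 ± 0.546) and SRSF10 (11.5 ± 0.334), which did not differ beyond their spread, then HNRNPUL2 (9.34 ± 0.504) and SRSF8 (7.7 ± 0.474), the lowest. Dividing by the longest annotated transcript kept the ranks of HNRNPA1, HNRNPK, HNRNPA2B1, HNRNPUL2 and SRSF8 and moved SRSF2 from rank 14 to rank 26.

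The largest changes were with the compound. Comparing KO LPS BMS with KO LPS asked what BMS265246 does in LPS-treated KO cells. Of the 33 genes, 17 were lower and 6 higher, and 10 did not pass the test. Among all genes tested, 25.5% were called lower and 22.3% higher. The median log2 fold change was -0.28 for the 33 against -0.04 for all genes. Of the 4376 genes that averaged 50 CPM or more, 2162 had a value above that of SRSF10 (0.08) and 2213 one below. The falls were led by SRSF3, HNRNPD, HNRNPDL, SRSF1 and HNRNPA3, which fell by 53.2% to 74.2%, and the largest rise was that of SRSF11, by 75.2%. The 17 lower calls held in each of the 19 alternatives tried (other scalings, filters and tools, and each library left out), and of the 6 higher calls those of SRSF4, SRSF11, HNRNPC and HNRNPK did. With library size as the only scaling, 37.1% of all called genes were higher in place of 46.6%.

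**Figure D2:**
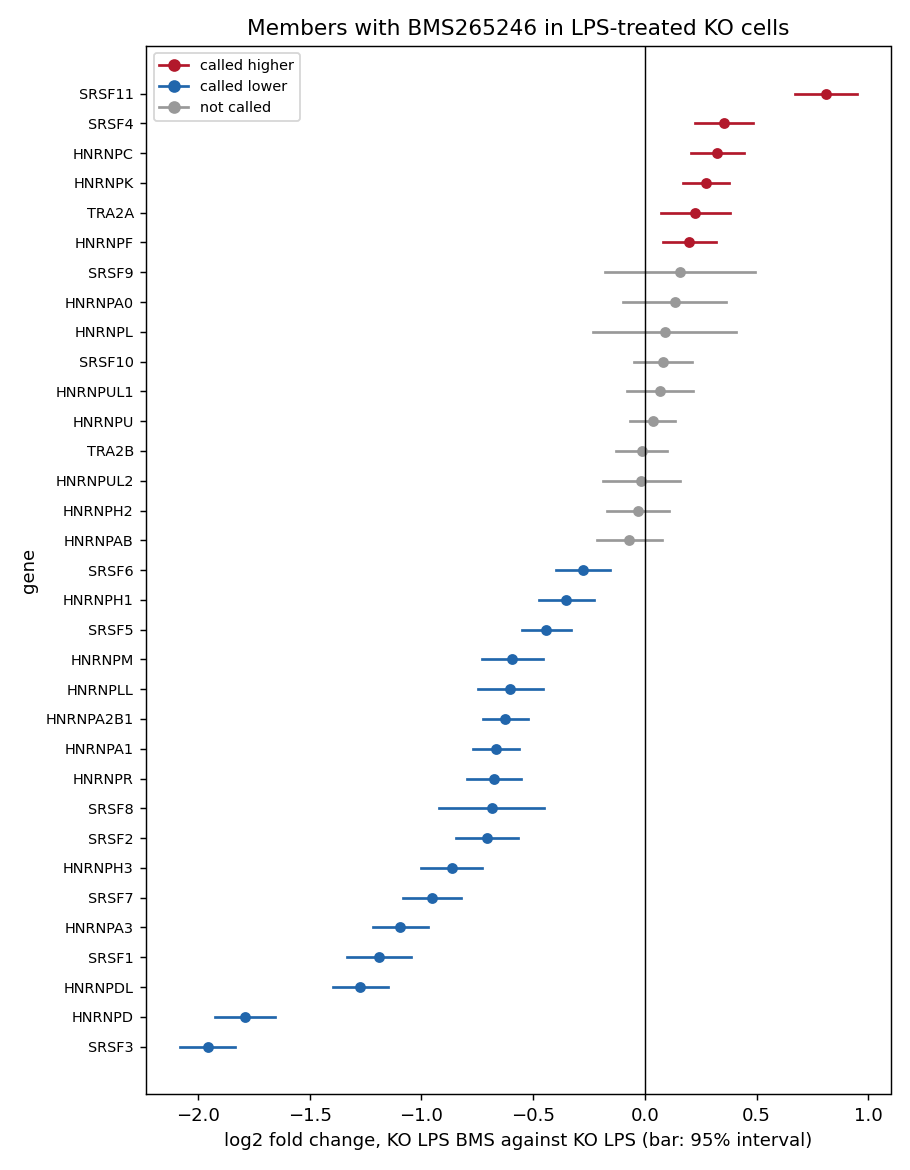
Log2 fold change of each of the 33 genes, KO LPS BMS against KO LPS (x axis, point with 95% interval), sorted by value (y axis) and coloured by call. SRSF11 stands at the top at 0.81, SRSF3 and HNRNPD at the bottom at -1.96 and -1.79.

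SRSF3 (ENSG00000112081, chromosome 6, 36594353 to 36605600, GRCh38), the smallest SR protein, also acts in mRNA export and in the choice of polyadenylation sites. Its level was 221, 210.4 and 211 CPM in WT, 194, 190.1 and 188 CPM in KO, 276 and 285 CPM in WT LPS, 259 and 244 CPM in KO LPS, and 63.5 and 66 CPM in KO LPS BMS. Both libraries with the compound stood apart from the other 10. It fell by 74.2% (-1.96 ± 0.06, adjusted p = 9.84e-16). Among the 4376 genes that averaged 50 CPM or more, a limit chosen after values were seen, only 11 fell further.

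SRSF11 (ENSG00000116754, chromosome 1, 70205682 to 70253052), an SR protein that contacts the factor U2AF at the 3′ splice site, went the other way. It stood at 181, 184 and 179 CPM in WT, 170.4, 165 and 168 CPM in KO, 217 and 255 CPM in WT LPS, 196 and 197 CPM in KO LPS, and 323 and 366 CPM in KO LPS BMS. The libraries with the compound were above all others. The change was 0.81 ± 0.07, adjusted p = 5.41e-09, a rise of 75.2%, and 154 of the same 4376 genes rose more.

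The promoters of these genes with the largest fall and rise are printed so that they can be set side by side. Each is the 200 bases before 1 start of the gene in RefSeq (GRCh38.p14), on the plus strand. Capitals mark matches on either strand to CCAAT (known for NF-Y), GGGCGG (Sp1 proteins), CCGGAA (ETS factors) and CACGTG (an E-box). They also mark TGACGT (CREB and ATF factors) and TATAAA (the TATA box). The NF-kB and MEF2 motifs were searched too but not set to be marked, and neither promoter held them.
SRSF3, chr6:36594162-36594361: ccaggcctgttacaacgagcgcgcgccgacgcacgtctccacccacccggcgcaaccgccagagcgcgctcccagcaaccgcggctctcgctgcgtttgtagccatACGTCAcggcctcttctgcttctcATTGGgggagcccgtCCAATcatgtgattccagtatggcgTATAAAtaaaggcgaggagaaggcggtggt
SRSF11, chr1:70221180-70221379: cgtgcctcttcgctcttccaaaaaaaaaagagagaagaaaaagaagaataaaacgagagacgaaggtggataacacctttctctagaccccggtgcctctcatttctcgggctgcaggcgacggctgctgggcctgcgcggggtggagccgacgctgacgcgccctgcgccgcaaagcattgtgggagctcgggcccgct
The SRSF3 stretch holds a CCAAT on each strand, a TGACGT on the minus strand and a TATAAA. The SRSF11 stretch as printed holds none of the motifs. In the longer promoter stretch that was searched in all genes, SRSF11 did hold a TATAAA, as did SRSF3. The pair as printed therefore does not show that the SRSF11 promoter lacks this motif. RefSeq lists a further SRSF11 start upstream, which is not shown. The 50 bases after the SRSF3 start are in a GENCODE transcript of that gene, and those after the SRSF11 start shown are in none as an unbroken run. These matches describe the letters only.

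Among the other SR proteins, SRSF1, the founding family member and a known proto-oncogene, stood at 130.2, 123 and 125 CPM in WT, 122, 109.8 and 117 CPM in KO, 154 and 167 CPM in WT LPS, 134 and 121 CPM in KO LPS, and 55.3 and 56.5 CPM in KO LPS BMS. Both libraries with the compound lay far below the other 10. SRSF1 fell with the compound by 56.1% (-1.19 ± 0.07, adjusted p = 3.28e-11). SRSF7, an SR protein with a zinc knuckle that promotes mRNA export, stood at 105, 103 and 100.2 CPM in WT, 96.5, 91.3 and 95.2 CPM in KO, 139.6 and 137 CPM in WT LPS, 120.1 and 123 CPM in KO LPS, and 60.4 and 65.1 CPM in KO LPS BMS. It fell by 48.3% (-0.95 ± 0.07, adjusted p = 1.73e-10), and the compound libraries did not overlap with any other group.

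SRSF2, which marks nuclear speckles and also binds at promoters with paused polymerase, stood at 95.4, 99.1 and 100.05 CPM in WT, 88.9, 88.6 and 83.8 CPM in KO, 158 and 160.2 CPM in WT LPS, 113 and 111 CPM in KO LPS, and 63.7 and 73.8 CPM in KO LPS BMS. It was highest in WT LPS and lowest with the compound, where it fell by 38.7% (-0.71 ± 0.07, adjusted p = 5.24e-08). MFSD11 overlaps SRSF2 on the opposite strand, with 6281 reads in the table against 20436 for SRSF2, and whether reads were counted by strand is not known here. SRSF8, a retrotransposed copy of SRSF2, stood at 30.3, 33.2 and 29.6 CPM in WT, 24.3, 24.3 and 23.1 CPM in KO, 17.7 and 17.6 CPM in WT LPS, 15.6 and 16.2 CPM in KO LPS, and 10.8 and 9.08 CPM in KO LPS BMS. Its order was WT, KO, then both LPS groups and the compound group, and it fell with the compound (-0.69 ± 0.12, adjusted p = 7.01e-05). The ratio of SRSF8 to SRSF2 counts was 0.296 to 0.335 in WT, 0.273 to 0.276 in KO, 0.11 to 0.112 in WT LPS, 0.138 to 0.146 in KO LPS and 0.123 to 0.169 in KO LPS BMS. Reads shared by these near-identical copies may have been split between them.

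The 3 larger SR proteins with a pair of RNA recognition motifs did not move together. SRSF5 fell with the compound from 328 and 324 CPM to 234 and 247 CPM (-0.44 ± 0.06, adjusted p = 1.45e-06). SRSF6 fell from 172 and 177 CPM to 137 and 150.1 CPM (-0.28 ± 0.06, adjusted p = 0.000795), while SRSF4 rose (0.36 ± 0.07, adjusted p = 0.000145), from 110.5 and 112 CPM to 144 and 141 CPM. SRSF10, a repressor of splicing when dephosphorylated, did not pass (0.08, 95% interval -0.05 to 0.21), nor did SRSF9 (0.16, 95% interval -0.18 to 0.49). SRSF9 was called in none of the 7 comparisons, and its libraries ranged from 52.7 to 76.3 CPM with wide spread inside the groups. It overlaps GATC on the opposite strand.

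TRA2A and TRA2B are SR-like proteins that bind GAA-rich exon enhancers. TRA2A stood at 78.5, 78.4 and 77.8 CPM in WT, 76.9, 66 and 75.3 CPM in KO, 106 and 109.95 CPM in WT LPS, 92 and 79.8 CPM in KO LPS, and 97.8 and 103 CPM in KO LPS BMS. TRA2B stood at 168, 164 and 162 CPM in WT, 154, 160.4 and 151 CPM in KO, 222 and 234 CPM in WT LPS, 190.3 and 187 CPM in KO LPS, and 184 and 189.6 CPM in KO LPS BMS. Both were highest in WT LPS. With the compound TRA2A was called higher (0.23 ± 0.08, adjusted p = 0.0222), a call that ended without KO LPS replicate 2 (0.13), without KO LPS BMS replicate 2 (0.19), with library size only (0.14) and in a fit of the compared groups alone (adjusted p = 0.0658). TRA2B did not pass (-0.01, 95% interval -0.13 to 0.10). The ratio of TRA2A to TRA2B counts was 0.532 to 0.544 in KO LPS BMS and 0.411 to 0.499 in the other 10 libraries.

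**Figure D3:**
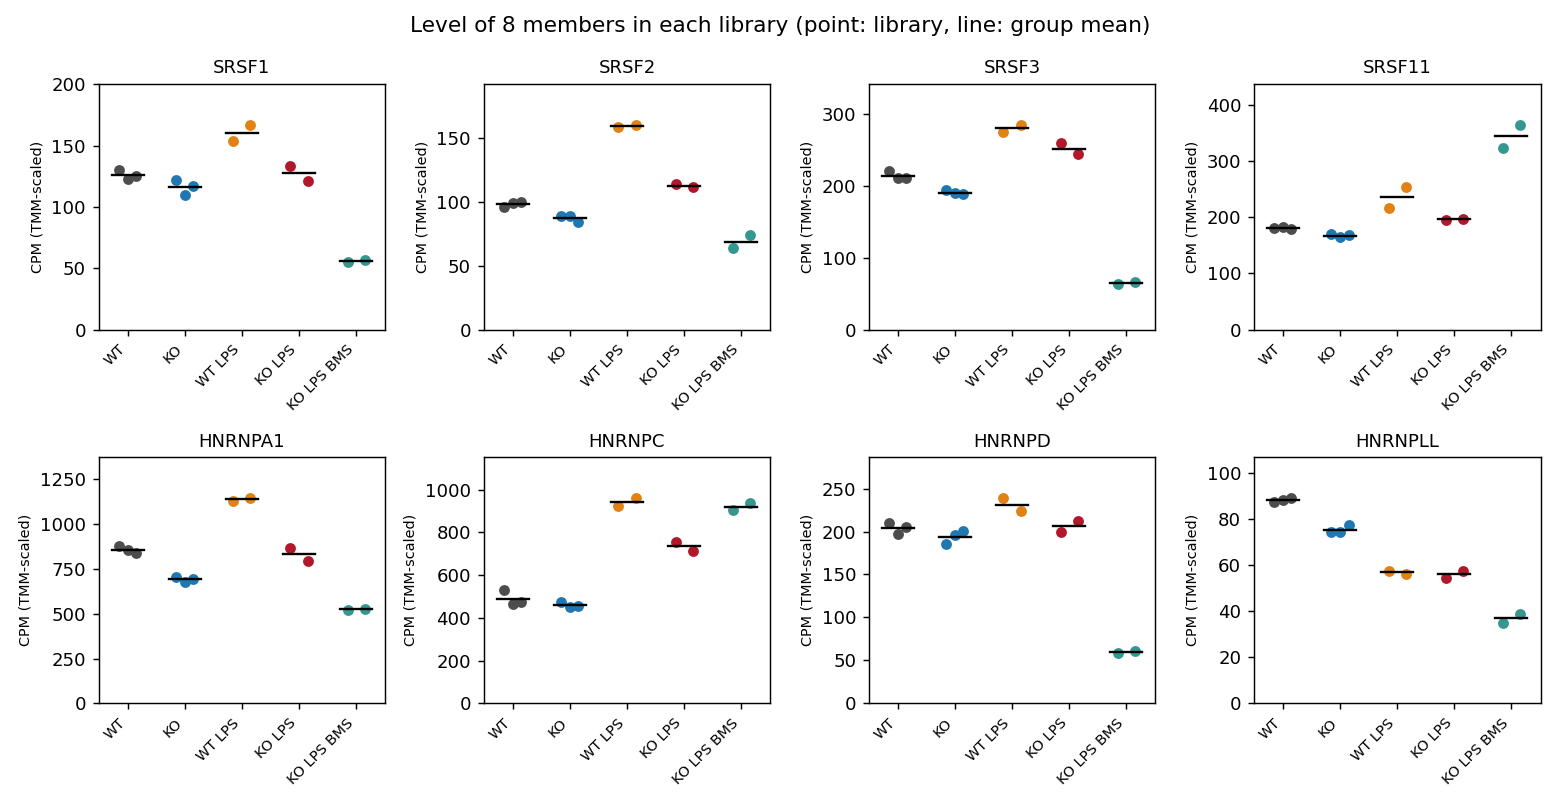
CPM (y axis, from 0) of 8 genes in each library, by group (x axis, point for a library, line for the group mean). SRSF1, SRSF3 and HNRNPD drop to between 55.3 and 66.0 CPM with the compound, HNRNPC stands at 903 and 938 CPM there, and HNRNPLL steps down from WT to KO, to LPS and to the compound.

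Within the hnRNP A/B and D family, 5 of 7 genes fell with the compound and none rose. HNRNPD, also called AUF1, binds AU-rich elements and promotes the decay of cytokine mRNAs. It stood at 210.1, 197 and 205 CPM in WT, 186, 196 and 201 CPM in KO, 239 and 224 CPM in WT LPS, 199 and 213 CPM in KO LPS, and 58.5 and 60.6 CPM in KO LPS BMS. The other 10 libraries lay close together and the 2 with the compound far below them. The fall was 71.1% (-1.79 ± 0.07, adjusted p = 1.43e-14), and 16 of the 4376 genes with at least 50 CPM fell further. HNRNPDL, its nearest relative and neighbour on chromosome 4, stood at 211, 204 and 199 CPM in WT, 195, 180.1 and 181 CPM in KO, 261 and 252 CPM in WT LPS, 207 and 209.7 CPM in KO LPS, and 85.7 and 86.8 CPM in KO LPS BMS. It fell by 58.6% (-1.27 ± 0.06, adjusted p = 7.11e-13). The ratio of HNRNPDL to HNRNPD counts was 1.43 to 1.46 with the compound and 0.902 to 1.13 in the other 10 libraries.

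HNRNPA1 stood at 879.8, 853 and 840.2 CPM in WT, 706, 677 and 695 CPM in KO, 1131 and 1144 CPM in WT LPS, 866 and 797 CPM in KO LPS, and 519 and 529 CPM in KO LPS BMS. It was lower in KO than in WT, highest in WT LPS and lowest with the compound, where it fell by 37% (-0.67 ± 0.05, adjusted p = 1.54e-09). The table holds 76 rows of HNRNPA1 pseudogenes, which took 2.83% as many counts as the gene. HNRNPA2B1, which acts in RNA transport as well as splicing, stood at 802, 764 and 771 CPM in WT, 811, 779 and 779.6 CPM in KO, 1138 and 1176 CPM in WT LPS, 991 and 935 CPM in KO LPS, and 625 and 625 CPM in KO LPS BMS. WT and KO overlapped, both LPS groups were above them, and the compound group was below all (-0.62 ± 0.05, adjusted p = 2.73e-09). HNRNPA3, a further relative, stood at 331, 319 and 330.2 CPM in WT, 309, 305 and 314 CPM in KO, 468 and 466 CPM in WT LPS, 384 and 349.8 CPM in KO LPS, and 162 and 181 CPM in KO LPS BMS. It fell by 53.2% (-1.09 ± 0.06, adjusted p = 7.55e-12). HNRNPA0, which binds AU-rich elements, and HNRNPAB did not pass (0.13 and -0.07), and their libraries with the compound overlapped those of KO LPS. HNRNPA2B1 overlaps CBX3 and HNRNPAB overlaps PHYKPL on the opposite strand.

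HNRNPC, which binds U-rich RNA and keeps Alu sequences from being spliced in as exons, was among the few that rose. It stood at 529, 465 and 473 CPM in WT, 474, 452 and 455 CPM in KO, 924 and 959.6 CPM in WT LPS, 756 and 715 CPM in KO LPS, and 903 and 938 CPM in KO LPS BMS. KO LPS lay between the groups without LPS and the others. With the compound it rose by 25.2% over KO LPS (0.32 ± 0.06, adjusted p = 0.000145). HNRNPK stood at 479.9, 453 and 458 CPM in WT, 459, 444 and 444 CPM in KO, 742 and 733 CPM in WT LPS, 597 and 566 CPM in KO LPS, and 708 and 697 CPM in KO LPS BMS. It rose by 20.8% (0.27 ± 0.05, adjusted p = 0.000203), again without overlap. For HNRNPC the libraries with the compound overlapped those of WT LPS, and for HNRNPK they lay just below them.

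The F/H proteins bind runs of G. HNRNPH3 stood at 126, 118 and 114 CPM in WT, 129.5, 117 and 121 CPM in KO, 179 and 176 CPM in WT LPS, 148 and 140.3 CPM in KO LPS, and 77.3 and 81.3 CPM in KO LPS BMS. It fell with the compound by 45% (-0.86 ± 0.07, adjusted p = 1.72e-09). HNRNPH1 fell less, from 519 and 494 CPM to 372 and 422 CPM (-0.35 ± 0.06, adjusted p = 8.37e-05). HNRNPF was called higher at 289 and 271 CPM against 243 and 244 CPM (0.20 ± 0.06, adjusted p = 0.0103), a call lost with library size only (0.11), in the fit of the compared groups alone (adjusted p = 0.0585) and without KO LPS BMS replicate 1 (0.15). The X-linked HNRNPH2 did not pass (-0.03, 95% interval -0.17 to 0.11). These genes are near-identical over parts of their sequence.

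HNRNPM and HNRNPR also fell. HNRNPM, a splicing repressor known to hold back IL6 mRNA maturation in macrophages, stood at 158, 169 and 165 CPM in WT, 160.5, 172 and 171 CPM in KO, 266 and 265 CPM in WT LPS, 203 and 235 CPM in KO LPS, and 149 and 141 CPM in KO LPS BMS. It fell by 33.7% (-0.59 ± 0.07, adjusted p = 4.31e-07). HNRNPR, a relative of SYNCRIP, stood at 175, 169.99 and 174 CPM in WT, 173, 169 and 168 CPM in KO, 278 and 284 CPM in WT LPS, 214 and 193 CPM in KO LPS, and 129 and 126 CPM in KO LPS BMS. It fell by 37.3% (-0.67 ± 0.06, adjusted p = 1.12e-08). For both genes the compound libraries lay below those of every other group. HNRNPLL, known for repressing exons of the leukocyte phosphatase gene PTPRC, stood at 87.2, 88.2 and 89 CPM in WT, 74.2, 74.5 and 77.6 CPM in KO, 57.5 and 56.3 CPM in WT LPS, 54.6 and 57.5 CPM in KO LPS, and 34.9 and 38.8 CPM in KO LPS BMS. Every WT library lay above every other library, and it was lower again with the compound (-0.60 ± 0.07, adjusted p = 9.15e-07). Its relative HNRNPL, which binds CA repeats, did not pass in any comparison, and its WT and KO libraries spread from 88.7 to 137 CPM. The hnRNP U family, HNRNPU, HNRNPUL1 and HNRNPUL2, was not called with the compound (values from -0.02 to 0.07).

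The compound group was also compared with KO cells without LPS, a contrast of LPS and compound together. Here 15 of the 33 genes were lower and 11 higher, against 32.4% and 30.3% of all genes. The median was -0.05, close to the -0.06 of all genes. Among the 4376 genes that averaged 50 CPM or more, 2047 had a value above that of TRA2B (0.27) and 2328 one below. For SRSF6, the middle gene of the 33, these numbers were 2995 and 1380. The 33 thus lay lower against these better expressed genes than against all genes. HNRNPD (-1.70 ± 0.06, adjusted p = 6.08e-16) and SRSF3 (-1.56 ± 0.06, adjusted p = 6.27e-16) fell most, while SRSF11 rose (1.04 ± 0.06, adjusted p = 3.5e-12) and HNRNPC rose (1.00 ± 0.05, adjusted p = 5.79e-13). With library size only, 4 were higher and 20 lower, and 26.1% of all calls were higher in place of 48.4%.

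LPS in WT cells raised most of the splicing factors. Of the 33 genes, 26 were higher and 2 lower in WT LPS than in WT (15 and 4 with library size only), against 28.9% and 30.8% of all genes. The median was 0.39, against -0.07 for all genes. Of the 4376 genes that averaged 50 CPM or more, 2249 had a value above that of SRSF4 (0.18) and 2126 one below. The middle of these better expressed genes thus lay near 0.18, closer to the 33 than the median of all genes. HNRNPC rose most, by 92.5% (0.94 ± 0.05, adjusted p = 1.33e-12), followed by HNRNPH2, by 70% (0.77 ± 0.06, adjusted p = 4.37e-10). HNRNPH2 stood at 111, 101 and 98.9 CPM in WT, 95.8, 88.3 and 91.8 CPM in KO, 174 and 179 CPM in WT LPS, 118 and 109 CPM in KO LPS, and 111 and 111 CPM in KO LPS BMS, and WT LPS lay above every other group. HNRNPR (0.70 ± 0.05), SRSF2 (0.70 ± 0.06), HNRNPM (0.69 ± 0.06) and HNRNPK (0.67 ± 0.05) rose by similar amounts. The 2 that fell were SRSF8 (-0.81 ± 0.10, adjusted p = 1.6e-07) and HNRNPLL (-0.63 ± 0.06, adjusted p = 1.79e-08).

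The gene with the smallest called rise was HNRNPD (0.18 ± 0.06, adjusted p = 0.0102). SRSF1 (0.35 ± 0.06) and SRSF3 (0.39 ± 0.05), which fell far with the compound, were in the middle of the range. HNRNPA0, SRSF9, HNRNPL, HNRNPUL1 and HNRNPUL2 did not pass. With library size only, 26.7% of all calls were higher in place of 48.4%, and SRSF4, SRSF5, HNRNPD and HNRNPF turned to values of -0.11 to -0.00299.

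In KO cells, 22 of the 33 genes were higher and 2 lower with LPS on the TMM scale. With library size only, 2 were higher and 5 lower. Among all genes the shares were 24.5% and 20.3%, and the median was 0.24 for the 33 against -0.00415. Of the 4376 genes that averaged 50 CPM or more, 2105 had a value above that of HNRNPF (0.17) and 2270 one below. HNRNPC again rose most (0.68 ± 0.06, adjusted p = 8.59e-10), then SRSF3 (0.40 ± 0.05, adjusted p = 1.49e-06), and the 2 that fell were again SRSF8 (-0.59 ± 0.10, adjusted p = 3.75e-05) and HNRNPLL (-0.43 ± 0.06, adjusted p = 9.23e-06). This count depended on the scaling. With library size only, the share of higher calls among all called genes went from 54.7% to 25.5%. With upper-quartile scaling 15 were higher and 2 lower, with a share of 40.7%. The 2 rises that held in all 19 alternatives were those of HNRNPC and SRSF3, and both falls held as well.

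**Figure D4:**
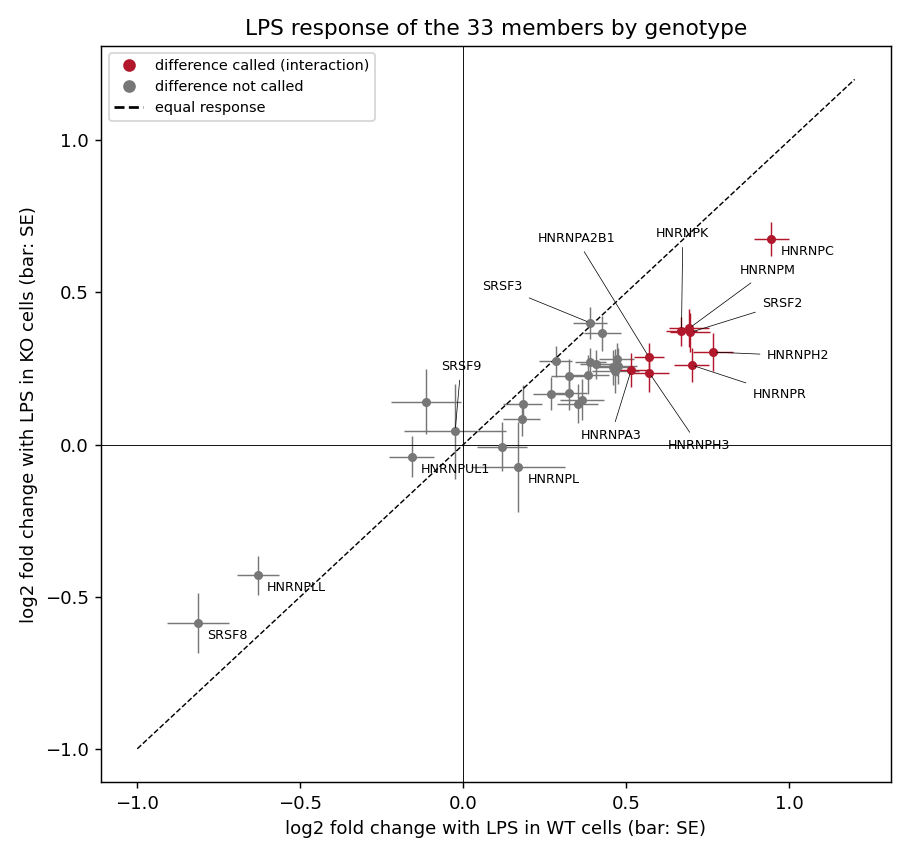
Log2 fold change with LPS in WT cells (x axis) and in KO cells (y axis) for the 33 genes, with bars for the SE and a dashed line for equal responses. The 9 genes in red, from HNRNPA3 to HNRNPC, lie below the line, and SRSF8 and HNRNPLL are at the lower left in both genotypes.

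The difference between the LPS responses of KO and WT cells was tested as an interaction. It was called lower for 9 of the 33 genes and higher for none, against 5.57% and 6.42% of all genes. The median was -0.16 against 0.05. Among the 4376 genes that averaged 50 CPM or more, 2399 had a value above that of SRSF7 (-0.06) and 1976 one below. For SRSF5 these numbers were 2057 and 2318. The middle of these better expressed genes thus lay between SRSF5 and SRSF7, closer to the 33 than the median of all genes. The 9 were HNRNPH2 (-0.46 ± 0.09), HNRNPR (-0.44 ± 0.08), HNRNPH3 (-0.34 ± 0.09), SRSF2 (-0.33 ± 0.09), HNRNPM (-0.31 ± 0.09), HNRNPK (-0.30 ± 0.07), HNRNPA2B1 (-0.28 ± 0.07), HNRNPC (-0.27 ± 0.08) and HNRNPA3 (-0.27 ± 0.08), and all 9 were called higher with LPS in KO cells on the TMM scale, while HNRNPA3 and HNRNPH3 turned to values just below 0 with library size only. HNRNPH2 had adjusted p = 0.00151 and HNRNPR adjusted p = 0.000642. For HNRNPH2 the rise was 70% in WT and 23.4% in KO cells. SRSF3 rose by 0.39 in WT and 0.40 in KO cells, and the difference did not pass (95% interval -0.14 to 0.16). The count was 5 without WT LPS replicate 2 and 12 without KO LPS replicate 1. The calls of SRSF2, HNRNPA3, HNRNPC, HNRNPH3 and HNRNPM were lost in at least 1 alternative, and those of HNRNPA2B1, HNRNPH2, HNRNPK and HNRNPR in none. With library size only, 65.3% of all called interactions were higher in place of 53.5%.

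Set side by side under LPS, KO cells had less of most of these transcripts than WT cells. In KO LPS against WT LPS 25 of the 33 genes were lower and none higher, against 15% and 15.6% of all genes. The median was -0.27 against 0.03. Of the 4376 genes that averaged 50 CPM or more, 2122 had a value above that of HNRNPUL1 (-0.06) and 2253 one below. HNRNPH2 fell most (-0.64 ± 0.07, adjusted p = 4.24e-07), followed by SRSF2 (-0.50 ± 0.07, adjusted p = 8.79e-06), HNRNPR (-0.47 ± 0.06) and HNRNPA1 (-0.45 ± 0.05). Both KO LPS libraries lay below both WT LPS libraries for all 4. These 4 were named as the largest falls, and the share of all genes without overlap was not counted. The lack of overlap therefore adds no support to their calls. In the fit of these 4 libraries alone, 16 were lower, and with library size only 20 were, where 60.6% of all calls were higher in place of 51.0%. The 14 calls that held in every alternative included HNRNPH2, SRSF2, HNRNPR and HNRNPA1. In the same comparison 12 of 25 cell cycle genes were lower and 2 higher, and 7 of 13 mitochondrially encoded transcripts were lower and none higher. Of 10 markers of monocytes and border macrophages 7 were higher and 1 lower, and 4 of 5 endothelial markers tested were higher and none lower. The part of these in the lower levels of the splicing factors was not tested.

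Without LPS the differences were small. In KO against WT cells 11 of the 33 genes were lower and none higher, against 11.4% and 10.2% of all genes, and the median was -0.11 against -0.02. SRSF8 was lowest relative to WT, by 23.1% (-0.38 ± 0.08, adjusted p = 0.00126), then HNRNPA1, by 19.3% (-0.31 ± 0.04, adjusted p = 1.15e-05), and HNRNPLL, by 14.4% (-0.22 ± 0.06, adjusted p = 0.00465). The calls of these 3 genes held in all 19 alternatives. The other 8 were SRSF2, SRSF3, SRSF5, SRSF6, HNRNPDL, HNRNPH2, HNRNPUL1 and HNRNPUL2, with values from -0.21 to -0.13. The count was 6 with DESeq2, 7 with library size only, 4 with upper-quartile scaling, and between 4 and 12 when 1 library was left out. It was 5 without WT replicate 1, 4 without WT replicate 2, 6 without WT replicate 3, and 4 without KO replicate 2 or without KO replicate 3. Each of these 8 calls was lost in at least 1 alternative.

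No library is shared between WT LPS against WT and KO LPS BMS against KO LPS, so their calls can be set against each other gene by gene. Of the 26 genes that LPS raised in WT cells, 15 were lower with the compound in KO LPS cells, 6 were higher and 5 did not pass. Over all 33 genes 17 were lower, 6 higher and 10 not called with the compound. The same cross-count was not made over all genes tested, so no share of all genes stands beside it. SRSF8 and HNRNPLL, which LPS lowered, were also lower with the compound. The 5 genes that LPS did not change by the test in WT cells, HNRNPA0, SRSF9, HNRNPL, HNRNPUL1 and HNRNPUL2, did not pass with the compound either. The libraries differ in genotype, and no test of this pattern was made.

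The kinases and partners of these proteins were followed as lists, to be read against the shares of all genes called, which were 22.3% higher and 25.5% lower with the compound and 28.9% higher and 30.8% lower with LPS in WT cells. Of 9 SR protein kinases and import factors, 4 were higher and 2 lower with the compound, and the median was 0.03. CLK1, which phosphorylates SR proteins in the nucleus, rose (0.85 ± 0.07, adjusted p = 4.69e-09), while PRPF4B fell (-0.24 ± 0.08, adjusted p = 0.0135). With LPS in WT cells 7 of the 9 were higher and none lower, led by SRPK1 (0.78 ± 0.07, adjusted p = 2.78e-09), which phosphorylates SR proteins in the cytoplasm. Of 12 SR-related proteins, 8 were higher and none lower with the compound, with a median of 0.42, and all 12 were higher in KO LPS BMS than in KO. THRAP3, a speckle protein, had the lowest adjusted p (0.96 ± 0.06, adjusted p = 4.76e-11).

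Of 31 other splicing regulators, 9 were higher and 8 lower with the compound (median 0.04). CELF1, which binds GU-rich elements, rose (1.25 ± 0.06, adjusted p = 1.4e-12), and FUBP1, which helps U2AF at 3′ splice sites, fell (-1.99 ± 0.08, adjusted p = 1.51e-14), by about as much as SRSF3. With LPS in WT cells 18 were higher and 3 lower, CELF1 being higher (0.84 ± 0.06) and CELF2 lower (-1.12 ± 0.06). Of 32 core spliceosome genes, 8 were higher, a share near that of all genes, and 3 lower with the compound (median 0.10), and 13 were higher and 8 lower with LPS in WT cells (median 0.09). Of 15 genes of NMD and the exon junction complex, 4 were higher with the compound, among them UPF3A (0.42 ± 0.08), and 4 lower, among them RBM8A (-0.62 ± 0.10). In KO against WT without LPS the 5 lists had lower calls for 1 of 9 kinases, 3 of 12 SR-related proteins, 8 of 31 other regulators, 5 of 32 core genes and 1 of 15 NMD genes, against 11.4% of all genes. Under LPS the same lists had 3, 4, 16, 10 and 3 genes lower in KO than in WT cells and 0, 0, 1, 0 and 1 higher, against 15% and 15.6% of all genes, led by SYNCRIP (-0.52 ± 0.07, adjusted p = 1.13e-05) among the other regulators.

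Other gene groups differed in the same comparisons, some in the same direction as the splicing factors and some in the opposite one. Of 25 cell cycle genes, 19 were lower and 1 higher with the compound, 18 lower and none higher in KO against WT, and 16 lower and 3 higher with LPS in WT cells. Their summed level was 2459 to 2520 CPM in WT, 1928 to 1944 CPM in KO, 1859 to 2004 CPM in WT LPS, 1570 to 1641 CPM in KO LPS and 1132 to 1187 CPM in KO LPS BMS. Of 13 mitochondrially encoded transcripts, 12 were higher with the compound (median 0.62) and 9 with LPS in WT cells. Of 10 markers of monocytes and border macrophages, 8 were higher and 1 lower in KO against WT, with summed levels of 3487 to 3556 CPM against 2209 to 2295 CPM. The part of these differences in those of the splicing factors was not tested.

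What the 33 genes share beyond their function was taken from the annotation. In GENCODE release 29, 26 of the 33 (78.8%) have a transcript annotated as a target of NMD, compared with 5574 of 13114 protein-coding genes tested (42.5%), and 24 (72.7%) have a retained intron transcript, compared with 57.5%. Both shares depend on how many transcripts are annotated for a gene, from 1 for HNRNPA0 to 50 for HNRNPH1. The compared genes were not matched for this number or for expression. An NMD transcript is annotated for 15 of the 17 genes that fell with the compound, 5 of the 6 that rose and 6 of the 10 not called. The genes are short, with a median span of 15960 bases against 32756 for protein-coding genes. The median span was 11396 bases for the 17 that fell and 30753.5 bases for the 6 that rose.

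RefSeq promoter sequence was held for 30 of the 33 genes. In the 250 bases before 1 start per gene, CCAAT occurred in 15 of 30 (50%) against 33.04% of 27305 genes, GGGCGG, the core of the Sp1 motif, in 19 (63.33%) against 42.31%, and CACGTG, the E-box bound by MYC, MAX and USF proteins among others, in 6 (20.0%) against 6.49%, on either strand. The 6 with CACGTG were HNRNPA3, HNRNPD, HNRNPDL, HNRNPH2, HNRNPH3 and HNRNPM, of which all but HNRNPH2 fell with the compound. Of all 30 genes, 15 fell with the compound. TGACGT was likewise in 6 (20.0% against 7.42%), of which 4 fell. A link of either motif to the falls was not tested. The NF-kB motif was in HNRNPF and HNRNPR (6.67% against 5.05%), and the MEF2 motif was in none of the 30 (0.53% of all). The promoters of the 30 were also richer in G and C, with a median of 65.6% against 58.0%, so that the shares of GC-rich motifs are not like for like.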

How the data were processed

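Total RNA from 12 cultures was extracted with TRIzol and made into libraries with a NEBNext Ultra RNA kit, per the labels' protocols. Raw read counts, whole numbers for 57992 Ensembl IDs in each library, were deposited by the authors in 1 table. CASAVA 1.7, Cufflinks and GRCh38 are named per the submitters' processing notes, while aligner, counter, strand setting and annotation are not given in these sources. Groups and replicate numbers came from the sample titles. Symbols were matched to IDs with a gene name table and GENCODE release 29, which also gave positions and transcripts.

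Genes were kept by filterByExpr with the group factor (16022 genes). With TMM scaling, 1 mean per group was fitted to the 12 libraries together by robust quasi-likelihood in edgeR 4.0.16 (R 4.3.3). The common biological coefficient of variation was 0.064, and groups of 2 borrow their spread from all groups. Replicates in those groups differed more. Chi-square per degree of freedom between 2 replicates was 11.1 in KO LPS, 6.88 in WT LPS and 4.88 in KO LPS BMS. It was 2.05 to 3.64 in WT and KO. The shared spread can thus be too small for the groups with LPS, and their p-values too low. With only the compared groups fitted, calls over all genes went from 4900 to 2660 in KO LPS against WT LPS. In KO against WT they went from 3463 to 4426. The 7 comparisons were tested 2-sided by the quasi-likelihood F test with Benjamini-Hochberg adjustment over all genes tested, and called at an adjusted p under 0.05. The SE is the absolute log2 fold change divided by the square root of F. The procedure was tested on simulated data. Total counts of 13888283 to 17639136 per library set the precision. An exact permutation test of single genes could not reach significance with groups of 2 or 3.

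The genes and lists were chosen with earlier results of these data known. Values in every library are given for genes called with an absolute log2 fold change of at least 0.5 in any comparison, for the largest rise and fall of each, and for a fixed panel. Of each pathway list the called gene with the lowest adjusted p per direction could be named. Alternatives were DESeq2 1.42.0, other scalings and filters, fits of the compared groups only, a replicate block and leaving out each library. The labels do not say whether replicate numbers pair the samples, and the numbers were not taken to do so. HNRNPA1, HNRNPA3, HNRNPC, HNRNPK and HNRNPL have expressed pseudogene rows with 1.21% to 2.83% as many counts as the gene, which could hold or take some of its reads. TGFB1 overlaps HNRNPUL1 on the opposite strand, with 51302 against 38822 reads, and RUFY2 overlaps HNRNPH3.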

Additional observations from a re-analysis of the deposited data

Results flagged for a closer look

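For 9 genes the response to LPS differed between KO and WT cells by the interaction test (edgeR's quasi-likelihood test, KO response minus WT response, log2). The differences were -0.46 for HNRNPH2, -0.44 for HNRNPR, -0.34 for HNRNPH3, -0.33 for SRSF2, -0.31 for HNRNPM, -0.30 for HNRNPK, -0.28 for HNRNPA2B1, -0.27 for HNRNPC and -0.27 for HNRNPA3. In each case the rise was smaller in KO cells. The other 24 genes did not pass this test, which does not show that their responses were equal.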

How the results depend on the processing

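The 17 lower calls with the compound (KO LPS BMS against KO LPS) kept direction and call in all 19 alternatives. Other counts moved. With library size only, WT LPS against WT had 15 higher and 4 lower calls, KO LPS against KO 2 higher and 5 lower, KO LPS BMS against KO 4 higher, and KO against WT 7 lower. Among values called in either fit, signs turned there and under no other alternative run, and sign changes of values that neither fit called are not given. For WT LPS against WT the called values became -0.10 for SRSF4, -0.00299 for SRSF5, -0.11 for HNRNPD and -0.0173 for HNRNPF. For KO LPS against KO those called became -0.0277 for SRSF6, -0.0237 for SRSF11, -0.0115 for TRA2A, -0.00824 for HNRNPA3, -0.0852 for HNRNPDL, -0.0857 for HNRNPF and -0.0183 for HNRNPH3. HNRNPD, above 0 and not called on the TMM scale, was called lower there at -0.17. For KO LPS BMS against KO those called became -0.0711 for TRA2B, -0.0645 for HNRNPA0, -0.064 for HNRNPH2 and -0.0333 for HNRNPU. HNRNPAB and HNRNPUL1, above 0 and not called on the TMM scale, were called lower there at -0.26 and -0.31. The lower calls in KO against WT were 6 with DESeq2 and 4 with upper-quartile scaling, and 4 to 12 with 1 library left out. Those in KO LPS against WT LPS were 16 in the fit of the compared groups only, which has 4 libraries. The interaction had 5 to 12 lower calls with 1 library left out. With the replicate number as a block, KO against WT had 8 lower calls, KO LPS against WT LPS 22, the interaction 8 and KO LPS BMS against KO 10 higher, and the other counts were those of the fit without it. Same-numbered libraries deviated with correlations of -0.143 to 0.103, and differently numbered ones with -0.103 to 0.143. In groups of 2 the deviations mirror each other, so this check could not decide whether the samples were paired. The numbers were not taken to pair them. Where no cause follows from the construction of an alternative, the cause was not tested. Groups of 2 libraries and counts summed over transcripts limit what can be said of single genes.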
